A study of Mus musculus with 12 samples.

Results

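The comparison described here asks whether the genes that set tumors of the F4 line apart from tumors of the F0 line did so alike in tumor cells and in the cells around them. It used all 12 arrays of the series and all 7894 named genes that passed the filter on dim probes. For each gene the F4 minus F0 difference among sorted tumor cells was set against the F4 minus F0 difference among sorted microenvironment cells. The test of whether both are equal is the interaction, the first difference minus the second on the log2 scale. A value of 0 means an equal shift and a positive value a shift more upward in tumor cells.

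F4 and F0 are lines of B16, a pigmented mouse melanoma that grows in C57BL6 mice. The labels describe F4 as cells with acquired resistance to earlier checkpoint inhibitors (CI), antibodies that release T cells from inhibitory receptors, and as under CI at harvest. The same tag calls F0 free of CI, before and at harvest. The treatment protocol says instead that mice with either line were given the same 3 injections of CI together with Fvax, a vaccine of B16 cells that express Flt3 ligand. Current treatment and line therefore cannot be told apart with certainty, and each difference is between kinds of tumor. Mice of both lines were inoculated under the skin of the right flank with 25000 cultured cells, and tumors were taken at 100 to 400 mm3. The tumors of 3 mice were digested and pooled for each replicate and sorted by tdTomato, a red fluorescent protein, into a positive (tumor) and a negative (microenvironment) fraction. F4 is a single line and tdTomato alone defined the tumor cells, so a melanoma cell that had lost the reporter would be sorted as microenvironment. The groups were tumor F4 (4 arrays, replicates A to D), tumor F0 (2 arrays, B2 and B3), microenvironment F4 (4 arrays, A to D) and microenvironment F0 (2 arrays, B2 and B3). An array of each fraction came from every pool, so there were 4 F4 pools and 2 F0 pools.

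As background, a solid tumor holds malignant cells together with T cells, natural killer cells, macrophages, neutrophils, fibroblasts and vessels. Malignant cells carry their line's own expression programme, including the pigment genes of melanocytes, whereas immune genes mark the infiltrate. Sorting on a reporter enriches each kind of cell and rarely removes the other entirely. In bulk RNA, fewer cells of a type and less RNA per cell cannot be told apart.

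Several arrays lay towards the other fraction. A marker index, the mean log2 signal of pigment-cell genes minus the mean of 6 immune-cell lists, was 2.24 on tumor F4 A against 4.27 to 5.09 on the other tumor arrays. It was 2.06 on microenvironment F4 D and 2.31 on microenvironment F0 B3, against -0.61 to 0.66 on the other microenvironment arrays. Detected probes numbered 8995 to 10308 on tumor arrays and 6808 to 9387 on microenvironment arrays. Pigment genes were far from absent in the negative fraction. Mlana, a melanosome antigen, had 11.79, 12.22, 10.90 and 13.57 in microenvironment F4 and 11.70 and 13.34 in microenvironment F0, against 12.99, 13.96, 13.88 and 14.11 in tumor F4 and 13.69 and 14.02 in tumor F0.

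No gene passed the test of a difference between the shifts. Of 7894 genes, 0 (0%) had an adjusted p below 0.05 for the interaction, and the smallest adjusted p was 1.0. At an unadjusted p below 0.05 there were 97 genes (1.23%). Fitted to the tumor minus microenvironment differences of the pools, the count was also 0. This does not show that the shifts were equal. The 95% interval of the interaction reached a median of 1.07 log2 units to either side, which is 2.11-fold. It lay wholly within 1 log2 unit of 0 for 1486 genes (18.8%). The average of both shifts, tested over pools, had 0 adjusted calls (0%) and 173 unadjusted ones (2.19%). Within the tumor fraction 7 genes passed (0.0887%) and within the microenvironment 0 (0%). All 7 had a shift of the same sign in the microenvironment, against 59.0% of all genes. Adcy2, Igfals, Fbp2 and Zp3 were not detected on any microenvironment array. Their sign there is that of a difference between signals at background. These calls rest on a spread shared by all 4 groups: fitted to the tumor arrays alone, 0 genes were called lower, and neither Rhox5, Lgi4, Fbp2, Adcy2, Igfals nor Zp3 passed. With the pool as replicate block 1 gene was called higher and 5 lower, these same 6, and D630003M21Rik no longer passed. The 6 calls also depend on single pools and arrays. With both arrays of pool F4 B, C or D left out, none of the 6 passed (adjusted p 0.092 to 0.30). Of the 6, 4 passed without pool F4 A. None of the 6 passed without tumor F4 B, tumor F4 C, tumor F0 B2, tumor F0 B3 or microenvironment F4 B (adjusted p 0.057 to 0.91), 3 passed without tumor F4 D and 4 without tumor F4 A, and Adcy2 alone was lost without microenvironment F4 A, C or D.

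Across genes, the shifts went the same way more often than not. Both had the same sign for 4660 genes (59.0%), with F4 higher in both for 2049 and lower in both for 2611. Their Pearson correlation across genes was 0.41 and their Spearman correlation 0.30. These are descriptions over genes, which are not replicates, and the points share mice, since both fractions of a pool came from the same tumors, as well as a joint normalization. The likeness was greater for larger shifts. Of 221 genes with a tumor shift of at least 2-fold, 193 (87.3%) had a microenvironment shift of the same sign. Of 170 genes with a microenvironment shift of at least 2-fold, 148 (87.1%) had a tumor shift of the same sign. All 36 genes past 2-fold in both fractions went the same way, 27 with F4 higher and 9 with F4 lower.

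**Figure D1:**
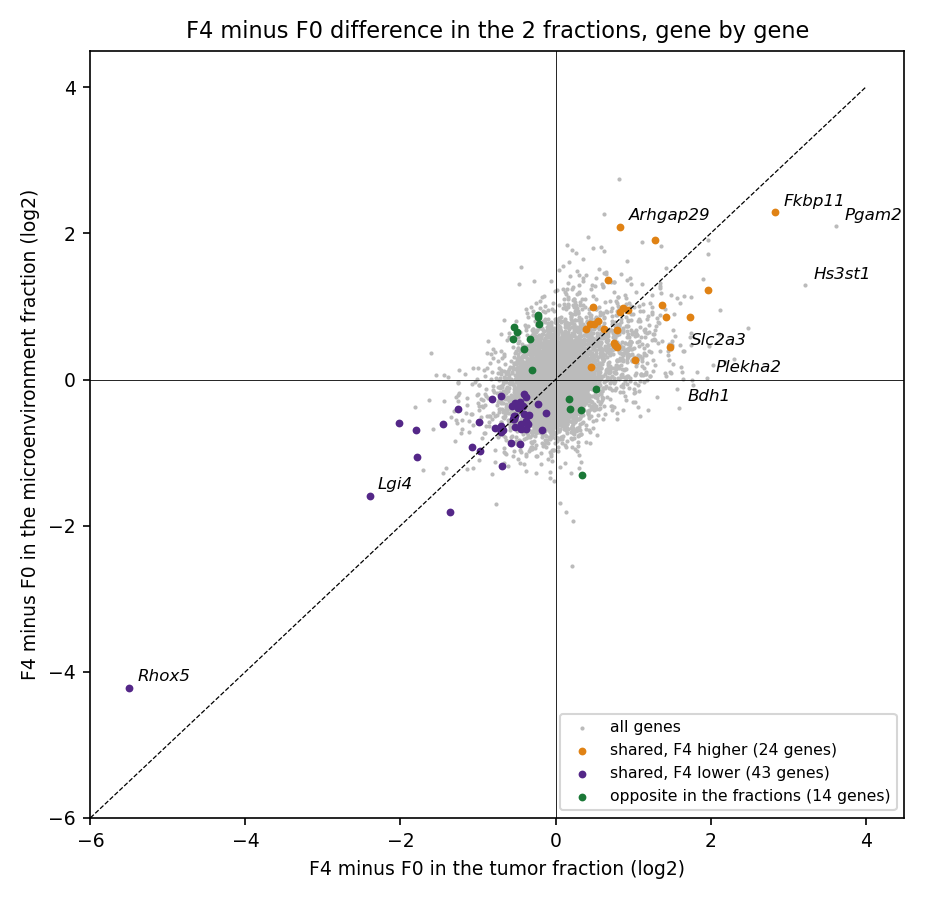
Each point is a gene, placed by its F4 minus F0 difference in log2 units in the tumor fraction (horizontal) and in the microenvironment fraction (vertical). Coloured points are genes whose F4 arrays all lay on one side of both F0 arrays in both fractions: 24 with F4 higher, 43 with F4 lower and 14 with opposite directions. The dashed line marks equal shifts, and Rhox5 lies far from all other genes at the lower left.

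This likeness rested largely on 1 F0 array of each fraction. Without microenvironment F0 B3 the correlation was 0.032 and the share of equal signs 48.2%. Without tumor F0 B3 the correlation was 0.19, without both arrays of pool F0 B3 it was 0.15, and without tumor F4 A it was 0.28. Without any other single array or pool it lay between 0.29 and 0.51. Genes with similar levels in both fractions, within 1 log2 unit, gave 0.29 over 6036 genes. Genes brighter by at least 1 log2 unit in tumor cells (819) had a median shift of -0.18 in the tumor fraction and -0.18 in the microenvironment. Genes brighter by as much in the microenvironment (1039) had medians of 0.38 and 0.23. With the marker index as covariate in the fit, the correlation was 0.24 and the share of equal signs 51.5%. The part of the sort in the correlation was not tested.

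**Figure D2:**
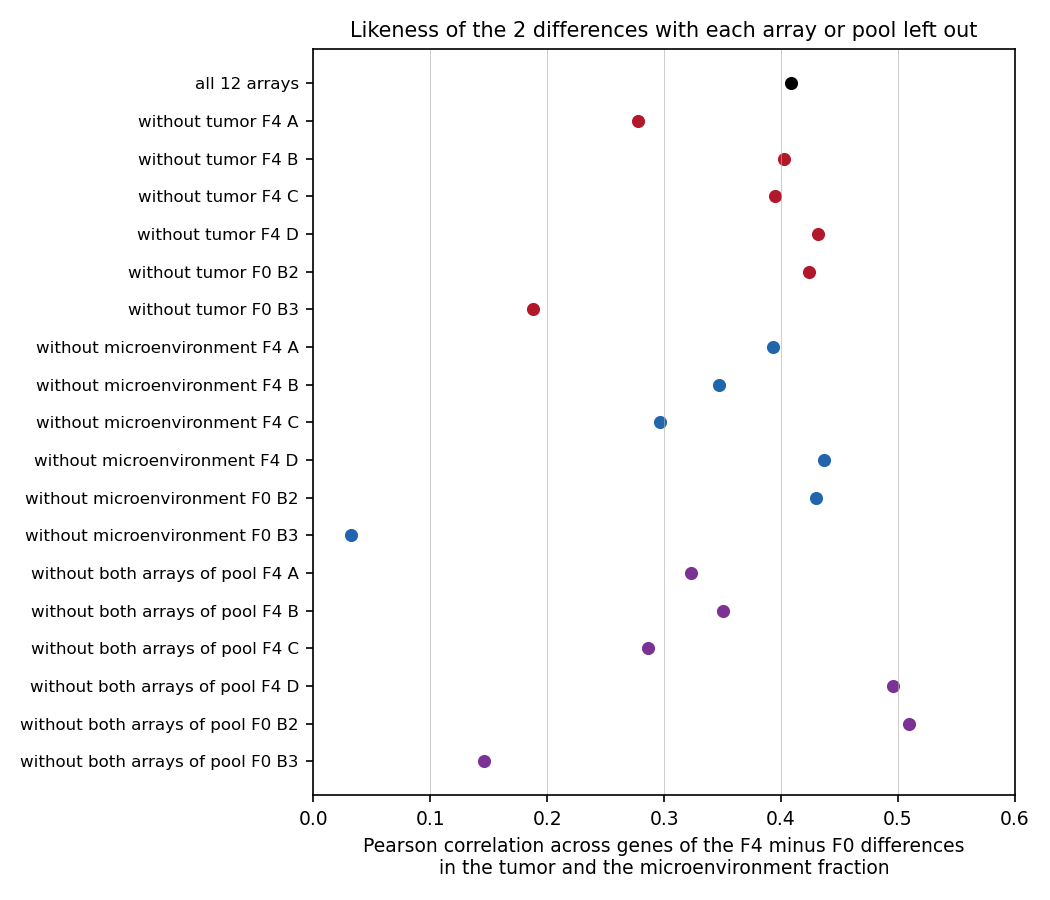
Pearson correlation across genes between the F4 minus F0 difference in the tumor fraction and that in the microenvironment fraction (horizontal, no unit), for all 12 arrays (black) and with 1 tumor array (red), 1 microenvironment array (blue) or both arrays of a pool (purple) left out. The value is 0.41 with all arrays and 0.032 without microenvironment F0 B3.

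Shifts of F4 pools against the mean of the F0 arrays were also set against each other pool by pool. The tumor and microenvironment shifts of the same pool correlated at 0.34 ± 0.065 (SD, n = 4 pools), from 0.26 to 0.41. Shifts taken from different pools correlated at a mean of 0.094 over 12 pairings, from -0.33 to 0.47. Both ranges overlap, and every pairing shares the same F0 arrays.

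Another reading asks for separation, all 4 F4 arrays on one side of both F0 arrays. With so few arrays, genes without any shift can be separated by chance as well. The shares below were not tested against the share that chance alone would give, and none is read as an excess over it. Separation therefore describes the order of the arrays and does not by itself mark a shift as real. In the tumor fraction 1084 genes were separated (13.7%) and in the microenvironment 416 (5.27%). In both fractions 24 genes were separated with F4 higher (0.304%), 43 with F4 lower (0.545%) and 14 in opposite directions (0.177%). The 24 higher genes had median shifts of 0.81 in tumor cells and 0.83 in the microenvironment, and the 43 lower ones had -0.54 and -0.60. The larger shift was the tumor one in 12 of the 24 and in 24 of the 43. In F0, 34 of the 43 lower genes (79.1%) were brighter in the tumor than in the microenvironment fraction, against 60.1% of all genes. In F4, 15 of the 24 higher genes (62.5%) were brighter in the tumor fraction, against 59.8% of all genes. The 24 lay on 15 chromosomes and the 43 on 16, with at most 6 on 1 chromosome. For 21 of the 67 genes separated alike, the interval of the interaction lay within 1 log2 unit of 0.

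The promoters of 3 genes are shown because each stands for a pattern described below: Rhox5 was lower in F4 in both fractions, Adh7 higher in both, and Mlph opposite. The sequences are from RefSeq on GRCm38.p6, from 250 bases before to 50 after the start site, on the plus strand, and capitals mark CG, the dinucleotide at which vertebrate DNA is methylated. Of 42 genes looked up, 33 had such a window.
Rhox5, chrX:37754358-37754657: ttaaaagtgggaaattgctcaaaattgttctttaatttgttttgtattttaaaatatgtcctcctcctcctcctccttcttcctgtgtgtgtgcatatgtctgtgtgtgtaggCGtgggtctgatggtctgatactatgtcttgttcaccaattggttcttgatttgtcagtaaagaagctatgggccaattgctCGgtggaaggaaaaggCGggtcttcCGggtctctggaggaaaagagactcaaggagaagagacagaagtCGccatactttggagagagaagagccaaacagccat
Adh7, chr3:138217523-138217822: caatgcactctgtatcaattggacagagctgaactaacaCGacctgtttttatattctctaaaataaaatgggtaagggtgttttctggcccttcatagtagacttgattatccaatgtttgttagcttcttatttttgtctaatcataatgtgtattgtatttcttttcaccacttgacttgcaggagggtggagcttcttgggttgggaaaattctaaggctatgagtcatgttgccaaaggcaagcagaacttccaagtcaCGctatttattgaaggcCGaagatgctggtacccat
Mlph, chr1:90914850-90915149: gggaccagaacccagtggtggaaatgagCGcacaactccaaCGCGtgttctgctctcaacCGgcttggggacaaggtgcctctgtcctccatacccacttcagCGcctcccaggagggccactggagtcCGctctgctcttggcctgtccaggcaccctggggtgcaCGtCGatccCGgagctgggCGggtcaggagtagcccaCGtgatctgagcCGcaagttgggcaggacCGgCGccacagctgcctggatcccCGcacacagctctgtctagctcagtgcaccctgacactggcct
The windows held 5, 3 and 15 CG in this order. Of 32851 such windows 94.6% held at least 1, with a median of 7. CACGTG, searched on both strands, occurred 1 time in the Mlph window, 0 times in the other windows, and in 7.15% of all windows. These matches describe letters only.

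Rhox5 had the largest shift of any gene in either fraction. It encodes a homeobox transcription factor of an X-linked cluster known from the reproductive tract, and its promoters are known to be kept silent by DNA methylation in most adult tissues. Its log2 signal was 7.23, 4.73, 4.88 and 4.58 in tumor F4 and 10.92 and 10.78 in tumor F0. In the microenvironment it was 5.12, 4.65, 4.45 and 4.40 in F4 and 7.87 and 9.87 in F0. The groups did not overlap in either fraction, F0 signal was lower in the microenvironment than in tumor cells, and tumor F4 A stood above the other F4 arrays. Rhox5 was detected on 1 of 4 tumor F4 arrays. It was 45.2-fold lower by the group means in F4 among tumor cells (adjusted p = 0.020) and at least 7.98-fold lower in the microenvironment (adjusted p = 0.34). The interaction was -1.28, with a 95% interval of -3.48 to 0.92. Without tumor F4 A the tumor shift was -6.12, against -5.50 with it, and the microenvironment shift then had an adjusted p of 0.020. The interaction was -0.28 without microenvironment F0 B2 and -2.28 without microenvironment F0 B3. The average shift of -4.86 had the smallest adjusted p of all genes, 0.21 over pools, and 0.0070 with the pool as replicate block. The fit over pools counts each pool once, whereas the block fit uses both arrays of a pool, which share mice.

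Lgi4, which encodes a secreted protein needed for myelin of peripheral nerves, followed the same pattern at a smaller scale. It had 4.92, 5.38, 5.58 and 5.65 in tumor F4 against 8.04 and 7.53 in tumor F0, and 4.86, 4.99, 5.10 and 4.81 in microenvironment F4 against 6.86 and 6.2 in microenvironment F0. All F4 values lay below all F0 values of their fraction. It was 5.28-fold lower in tumor cells (adjusted p = 0.019) and at least 1.57-fold lower in the microenvironment (adjusted p = 0.35), with an interaction of -0.81 (-1.68 to 0.06). The average shift was -1.99, with an adjusted p of 0.24 over pools and 0.0070 with the pool as replicate block. For the adenylate cyclase gene Adcy2 the adjusted p of the average was 0.65 over pools, 0.045 with the block and 0.023 from the 12 arrays. The fit from the 12 arrays treats both arrays of a pool as independent, although they share mice.

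Adcy2, Igfals and Fbp2 were lower in F4 tumor cells and were not detected on any microenvironment array. Adcy2, an enzyme that makes cyclic AMP, had 4.48, 4.79, 4.96 and 4.39 in tumor F4 against 6.18 and 6.70 in tumor F0, and 4.35, 4.34, 4.43 and 4.33 in microenvironment F4 against 5.07 and 5.77 in microenvironment F0. It was detected on both tumor F0 arrays and on no array of the other groups. Igfals, a binding partner of circulating insulin-like growth factors, had 4.68 to 4.77 in tumor F4 against 6.11 and 6.25 in tumor F0, and 4.53 to 4.75 in microenvironment F4 against 5.03 and 5.51 in microenvironment F0. Fbp2, the muscle form of fructose bisphosphatase, had 4.43 to 5.28 in tumor F4 against 6.63 and 7.01 in tumor F0, and 4.33 to 4.51 in microenvironment F4 against 5.0 and 5.05 in microenvironment F0. Neither Igfals nor Fbp2 was detected in the microenvironment, so the microenvironment side of their interaction (-0.84 for Igfals, -1.42 for Fbp2) is a difference between signals at background. In tumor cells the folds were at least 2.32 for Adcy2 (adjusted p = 0.036), 1.94 for Igfals (adjusted p = 0.027) and 3.02 for Fbp2 (adjusted p = 0.019).

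Slc12a2, the sodium, potassium and chloride importer, had nearly equal downward shifts and was detected on every array. Its signal was 8.19, 8.15, 8.51 and 8.93 in tumor F4 against 9.41 and 9.42 in tumor F0. The microenvironment signal was 8.67, 7.66, 7.67 and 7.72 in F4 against 8.79 and 9.02 in F0. The shifts were -0.97 and -0.98, and the interaction 0.01 (-1.01 to 1.03). Dlx1, a homeobox gene, was separated in both fractions with shifts of -1.26 and -0.41, but undetected on all microenvironment arrays. Ntn3, a netrin, had shifts of -0.69 and -1.19, and was detected on 1 of 4 F4 and 1 of 2 F0 microenvironment arrays.

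The genes higher in F4 in both fractions included Fkbp11, Adh7, Arhgap29 and Slc12a8. Fkbp11, a protein-folding enzyme of the endoplasmic reticulum, had 7.07, 8.56, 8.68 and 8.81 in tumor F4 against 6.2 and 4.70 in tumor F0, and 6.04, 7.79, 8.25 and 8.35 in microenvironment F4 against 5.39 and 5.25 in microenvironment F0. Replicate A was lowest in both fractions, yet above both F0 arrays. The difference was 7.10-fold in tumor cells and at least 2.82-fold in the microenvironment, with an interaction of 0.54 (-1.58 to 2.66). Its adjusted p was 0.34 in tumor cells and 1.0 in the microenvironment and for the average.

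Adh7, an alcohol dehydrogenase that oxidizes retinol, had 7.92, 7.54, 7.66 and 7.08 in tumor F4 against 6.56 and 5.96 in tumor F0. In the microenvironment it had 5.24, 7.59, 7.37 and 6.46 in F4 against 4.96 and 4.55 in F0. It was detected on 3 of 4 F4 and on 0 of 2 F0 microenvironment arrays. The shifts were 1.29 and 1.91, with an interaction of -0.62 (-2.32 to 1.08) that turned to 0.18 when each fraction was normalized alone. Of 11 measured alcohol and aldehyde dehydrogenases it was the only one separated in both fractions.

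Arhgap29 had 6.62, 7.45, 7.02 and 7.17 in tumor F4 against 6.49 and 5.96 in tumor F0. It had 6.86, 7.15, 7.51 and 6.74 in microenvironment F4 against 5.32 and 4.62 in microenvironment F0. Here the microenvironment had the larger shift, 2.09 against 0.83 in tumor cells, with a lower F0 level there and like F4 levels in both fractions. The microenvironment fold was at least 1.94, and the interaction -1.26 (-2.26 to -0.26, unadjusted p = 0.018, adjusted p = 1.0). Slc12a8, of the cation and chloride cotransporter family, had 5.76 to 6.32 in tumor F4 against 4.52 and 4.76 in tumor F0, and 5.60 to 6.07 in microenvironment F4 against 4.94 and 4.56 in microenvironment F0. Slc12a8 was undetected in F0 in both fractions, so its interaction of 0.35 (-0.42 to 1.13) sets 2 differences from background against each other. Tmem141, a membrane protein, had measured differences of 0.93 and 0.95, but it was undetected in microenvironment F0, where its fold is only at least 1.27. Cercam (1.42 and 0.85), the arsenic methyltransferase As3mt (1.48 and 0.44) and the neuropeptide gene Cort (1.96 and 1.23) complete the 8 named upward genes. As3mt and Cort were each detected on 1 of 4 F4 and 0 of 2 F0 microenvironment arrays.

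**Figure D3:**
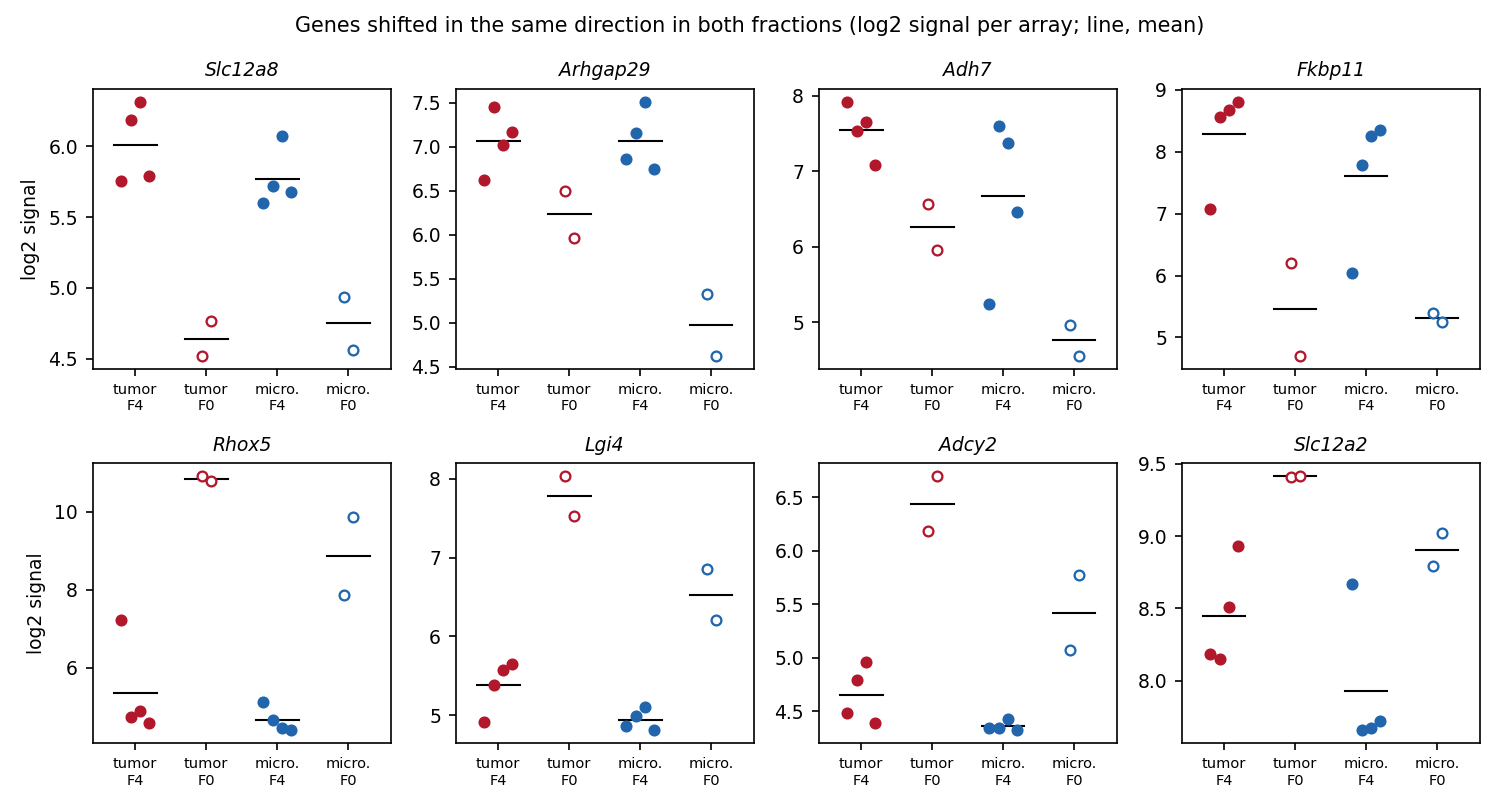
Log2 signal of 8 genes on every array, with F4 as filled and F0 as open circles, tumor fraction in red, microenvironment fraction in blue, and a line at each group mean (n = 4 in F4, n = 2 in F0). In every panel all F4 points of a fraction lie above both F0 points (upper row) or below both (lower row).

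Pgam2 and Hs3st1 had the largest upward shifts in tumor cells. Pgam2, the muscle form of the glycolytic enzyme phosphoglycerate mutase, had 9.17, 8.81, 8.47 and 8.86 in tumor F4 against 4.91 and 5.51 in tumor F0. Its microenvironment signal was 7.28, 6.82, 5.44 and 9.07 in F4 against 5.57 and 4.53 in F0. Tumor groups were far apart, whereas microenvironment F4 C fell between both F0 arrays. The shift was 3.62 in tumor cells and 2.10 in the microenvironment, with an interaction of 1.51 (-0.77 to 3.80). Pgam2 was undetected in microenvironment F0, so its microenvironment fold is at least 2.06. The microenvironment shift was 1.46 without microenvironment F4 D, and the tumor shift then had an adjusted p of 0.031, against 0.19 with all arrays. Among the microenvironment F4 arrays D was highest and C lowest, as they were for the mean of the pigment genes (9.98 on D and 8.03 on C). The part of carried-over melanoma cells was not tested.

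Hs3st1, which sulfates heparan chains, had 7.34, 9.68, 9.32 and 8.87 in tumor F4 against 5.64 and 5.52 in tumor F0, and 7.95, 8.22, 6.92 and 8.53 in microenvironment F4 against 7.05 and 6.17 in microenvironment F0. The interaction was 1.93 (0.05 to 3.80, unadjusted p = 0.045, adjusted p = 1.0). Without tumor F4 A the tumor shift of Hs3st1 was 3.71 with an adjusted p of 0.018, against 3.22 and 0.12 with all arrays. Its microenvironment shift was 0.85 without microenvironment F0 B3, against 1.29. Slc2a3, the glucose transporter GLUT3, had 9.23 to 10.04 in tumor F4 against 7.93 and 8.33 in tumor F0, but 9.67 to 9.93 in microenvironment F4 against 9.90 and 8.95 in microenvironment F0. Its shift of 1.64 in tumor cells stood against 0.39 in the microenvironment, and the microenvironment shift was -0.09 without microenvironment F0 B3.

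A second set of genes had unlike shifts. For 573 genes (7.26%) the tumor minus microenvironment value of all 4 F4 pools lay on one side of both F0 pools, 279 more positive in F4 and 294 more negative. None passed the interaction test, and with so few pools such separation can arise by chance. These are therefore the genes with the least overlap and not a called set. Zp3, a protein of the egg coat, had the smallest unadjusted p (6e-04). It had 6.16, 5.90, 6.09 and 5.62 in tumor F4 against 4.34 and 4.32 in tumor F0, where it was undetected. In the microenvironment it had 4.35 to 4.67 in F4 and 4.34 and 4.36 in F0, undetected throughout. Its rise in tumor cells passed the test (at least 1.71-fold, adjusted p = 0.022), and the interaction was 1.44 (0.77 to 2.12).

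Bdh1, a mitochondrial enzyme of ketone body use, had 7.31, 6.80, 7.17 and 7.21 in tumor F4 against 5.55 and 5.50 in tumor F0. Microenvironment values were 7.14, 6.41, 5.84 and 7.04 in F4 against 6.82 and 7.17 in F0. F4 tumor cells thus reached the level of the microenvironment. F0 tumor cells lay below all other arrays, though microenvironment F4 C came close to them at 5.84. The shifts were 1.59 and -0.38, with an interaction of 1.98 (0.91 to 3.05, unadjusted p = 0.0018, adjusted p = 1.0). Plekha2, a phosphoinositide-binding adaptor studied in lymphocytes, was bright in the microenvironment of both lines (9.72 to 10.74 in F4 against 9.56 and 10.98 in F0). It was 8.65 to 9.57 in tumor F4 and 6.64 and 7.43 in tumor F0, with an interaction of 1.94 (0.59 to 3.28).

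The genes with the more negative shift in tumor cells were mostly dim. Of the 8 named, 7 were detected only in tumor F0, so their microenvironment values lie at background: Ptgir, Fbp2, Dppa4, Rad9b, Wfdc6b, Lrrc4b and Slc22a17. Ptgir, the prostacyclin receptor, had 4.35 to 4.54 in tumor F4 against 5.61 and 6.37 in tumor F0, with an interaction of -1.60 (-2.38 to -0.83). Dppa4, a gene of pluripotent cells, had 4.38 to 4.66 in tumor F4 against 5.66 and 5.89 in tumor F0. The eighth, the kinase gene Vrk2, differed on the other side. It had 5.54 to 6.0 in tumor F4 against 5.88 and 5.97 in tumor F0, but 5.82 to 6.29 in microenvironment F4 against 5.01 and 5.23 in microenvironment F0, where it was undetected.

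Opposite separation was seen for 5 genes higher in F4 tumor cells and lower in the F4 microenvironment, and for 9 the other way round. Mlph encodes melanophilin, which ties pigment granules to the myosin motor of melanocytes. It had 7.67, 7.33, 7.37 and 7.21 in tumor F4 against 7.02 and 7.09 in tumor F0, and 4.64, 5.69, 5.37 and 6.66 in microenvironment F4 against 6.95 and 6.86 in microenvironment F0. Its interaction was 1.65 (0.34 to 2.97, unadjusted p = 0.018). Pigment genes averaged 8.73 on microenvironment F0 B2 and 10.01 on F0 B3, which had similar Mlph. Among the microenvironment F4 arrays they averaged 9.98 on D, where Mlph was highest, and 8.03 to 9.09 on the others. The part of carried-over melanoma cells was not tested. Nus1, needed for dolichol synthesis, had smaller shifts of 0.33 and -0.42. Spcs3, of the signal peptidase, had 0.18 and -0.26, and its interaction of 0.44 was -0.08 with median scaling. Ly6d, a surface protein known from early B cells, had 4.34 to 4.57 in tumor F4 and 4.28 and 4.29 in tumor F0, undetected in both, and 6.59 to 6.82 in microenvironment F4 against 6.93 and 7.18 in microenvironment F0.

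In the other direction, Cdc37, which loads kinases onto Hsp90, had 5.39, 5.88, 5.93 and 5.94 in tumor F4 against 6.05 and 5.98 in tumor F0. It had 5.91, 5.63, 4.92 and 5.55 in microenvironment F4 against 4.68 and 4.58 in microenvironment F0, where it was undetected. Elmo2, a partner of the Rac activator Dock in engulfment and migration, had differences of -0.50 and 0.66, but was undetected in microenvironment F0 and detected on 2 of 4 microenvironment F4 arrays. Ankrd27, a vesicle-traffic protein, had -0.55 and 0.56 and was detected on no microenvironment array. Gpbp1l1 had -0.22 and 0.76 and was detected on 1 of 4 F4 and 0 of 2 F0 microenvironment arrays. The microenvironment side of these differences is thus at or near background, and no fold is given for it. The adjusted p of each of these interactions was 1.0.

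**Figure D4:**
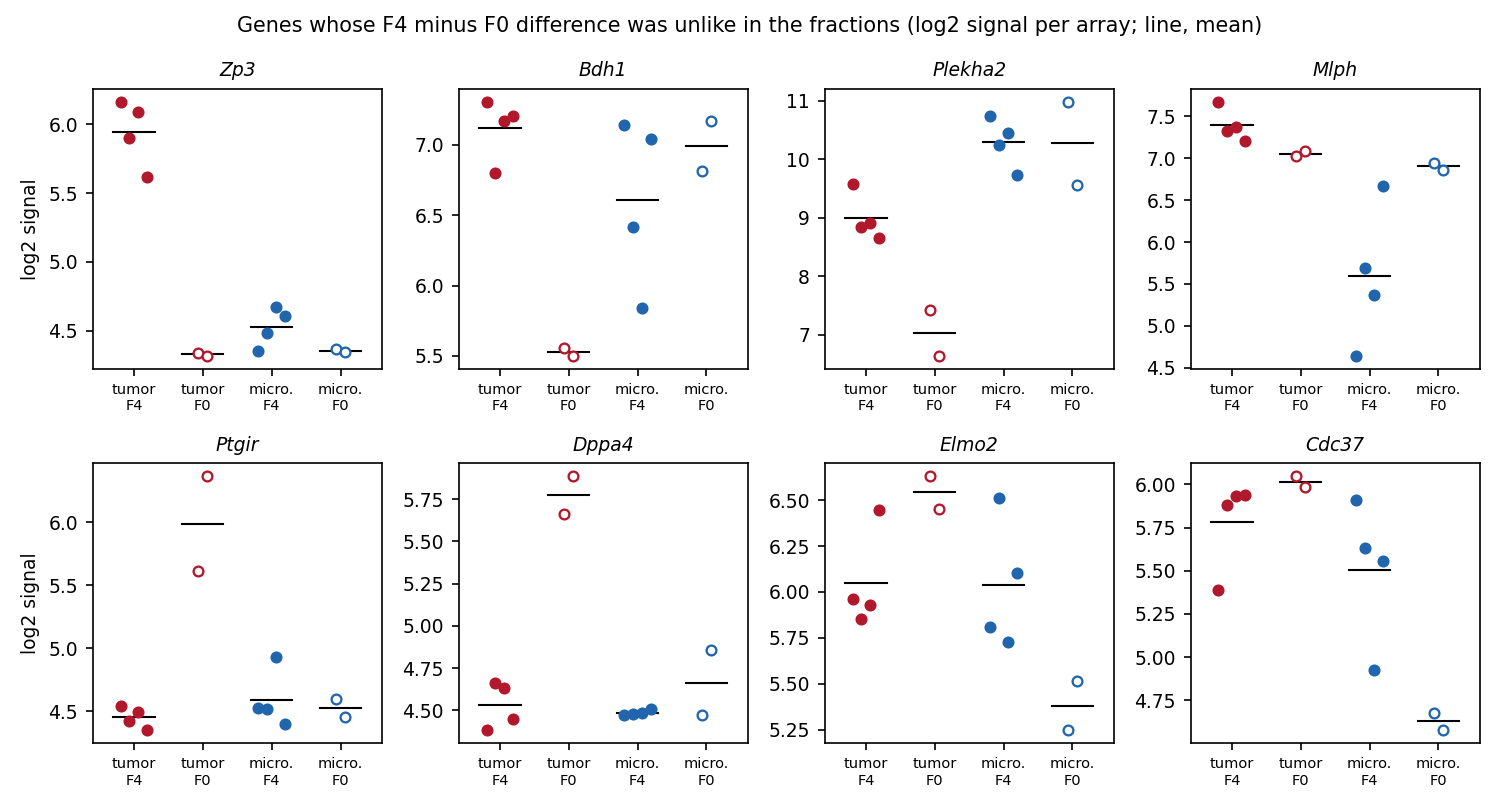
Log2 signal of 8 genes on every array, drawn as F4 (filled) and F0 (open) in the tumor (red) and microenvironment (blue) fraction, with a line at each group mean (n = 4 in F4, n = 2 in F0). Zp3, Bdh1 and Plekha2 are apart between the lines in tumor cells and overlap or are undetected in the microenvironment. Mlph, Elmo2 and Cdc37 are separated in opposite directions.

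T cell genes were among those past 2-fold in both fractions, none of them separated in both. Among the 36 genes past 2-fold in both fractions, only 8 were separated in both (4 higher, 4 lower), and 6 of the other 28 belong to the T cell list: Cd3d, Cd3e, Cd3g, Cd6, Cd8b1 and Thy1, parts of the T cell receptor complex and surface proteins of T cells. They are named here after their values were seen. Cd3e had 9.69, 5.96, 5.14 and 4.66 in tumor F4 against 5.72 and 4.32 in tumor F0, and 12.07, 11.15, 10.97 and 10.21 in microenvironment F4 against 11.68 and 7.95 in microenvironment F0. One F4 array was high in the tumor fraction and one F0 array low in the microenvironment, while all the others overlapped. The shifts were 1.34 and 1.29, with an interval of the interaction from -4.01 to 4.12. With microenvironment F0 B3 left out, the microenvironment shift kept its sign in 22 of the 36 genes and in 0 of the 6 T cell genes.

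Over the whole T cell list, 15 genes were measured and 14 were above 0 in both fractions, with medians of 0.98 in the tumor fraction and 1.20 in the microenvironment. Of all 7894 genes 2049 were above 0 in both. Of the 1039 genes brighter by at least 1 log2 unit in the microenvironment, 670 were. The mean of the list was 4.63 to 8.32 in tumor F4 against 4.43 and 5.48 in tumor F0, and 9.02 to 10.74 in microenvironment F4 against 7.26 and 10.33 in microenvironment F0. Groups overlapped in both fractions, and 7 of the 15 genes were undetected on both tumor F0 arrays. The median was 0.19 in the tumor fraction without tumor F4 A, and -0.51 in the microenvironment without F0 B3. No member passed the interaction or the average test, which had 0% called among all genes, and this also holds for every other list here.

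Natural killer genes were mostly not detected in tumor F0. Of the 8 measured, 3 were undetected on all tumor F4 arrays and 7 on all tumor F0 arrays, while each was detected on at least 1 microenvironment array of either line. The differences were above 0 in the tumor fraction and below 0 in the microenvironment for all 8 (medians 0.28 and -0.34). On the tumor side F0 lay largely at background. The mean of the list was 6.32 on tumor F4 A, against 4.40 to 4.66 on the other tumor F4 arrays. Among all genes 52.4% had an interaction above 0. Klra7, an inhibitory receptor of mouse natural killer cells, had 6.86, 6.19, 5.02 and 5.45 in microenvironment F4 against 10.30 and 6.56 in microenvironment F0, and 4.28 to 5.16 in tumor F4 against 4.43 and 4.36 in tumor F0, undetected in both. Microenvironment F0 B2 alone was high. Without it the median microenvironment shift was 0.99, and without tumor F4 A the median tumor shift was -0.05.

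Macrophage genes had shifts of like sign. All 16 had the same sign in both fractions, 15 of them above 0, with medians of 0.78 in the tumor fraction and 0.44 in the microenvironment. The same sign was seen in 59.0% of all genes. It was seen in 69.7% of the 1039 genes brighter by at least 1 log2 unit in the microenvironment, 670 of them above 0 in both. Cd14, a receptor for bacterial lipopolysaccharide, had 11.15, 8.59, 8.82 and 6.28 in tumor F4 against 8.83 and 5.98 in tumor F0. In the microenvironment it had 11.02, 12.16, 12.54 and 10.80 in F4 against 10.81 and 10.78 in F0, so F4 reached higher while its lowest array overlapped F0. The mean of the list was 6.57 to 10.07 in tumor F4 against 6.93 and 8.41 in tumor F0. In the microenvironment it was 8.53 to 10.15 in F4 against 8.82 and 9.11 in F0. Groups overlapped in both fractions, and microenvironment F4 A (8.53) and D (8.70) lay below both F0 arrays. The medians of the list stayed above 0 in every alternative, from 0.06 in the tumor fraction and 0.17 in the microenvironment upwards. Inflammatory cytokines had medians of 0.92 and 0.63 with 17 of 19 above 0 in both, and MHC class II genes 0.50 and 0.43 with 14 of 15. Il1b, a fever-inducing cytokine, had 12.10, 9.32, 8.95 and 6.49 in tumor F4 against 9.19 and 5.03 in tumor F0, and 12.70, 13.60, 14.05 and 11.85 in microenvironment F4 against 12.35 and 12.49 in microenvironment F0. The tumor medians of both lists turned below 0 without tumor F0 B3, to -0.11 for the cytokines and -0.32 for class II. Class I genes had medians of 0.35 and 0.50. The tumor median was -0.35 without tumor F0 B3, and the microenvironment median -0.28 without microenvironment F0 B3.

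Type I interferon response genes, which cells switch on against viruses, had medians of 0.27 and 0.21. In both fractions 16 of 22 were above 0, against 2049 of all 7894 genes. Bst2, which tethers budding viruses, had 10.34, 10.11, 10.19 and 10.86 in tumor F4 against 10.01 and 9.08 in tumor F0, and 9.74, 10.02, 9.68 and 10.41 in microenvironment F4 against 9.83 and 9.79 in microenvironment F0. It was separated in tumor cells alone, with an interaction of 0.67 (-0.34 to 1.68). Without tumor F0 B3 the tumor median of the list was -0.14.

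Genes of mitochondria, proteasome, chaperones and cell division had shifts that differed slightly but in most members the same way. For oxidative phosphorylation, the respiratory chain and ATP synthase, 62 of 63 genes had an interaction above 0, with medians of 0.06 in tumor cells and -0.23 in the microenvironment. For mitochondrial ribosomal proteins it was 59 of 67 (0.02 and -0.20), for the proteasome 23 of 27 (0.08 and -0.17), for heat shock proteins 18 of 18 (0.14 and -0.20), for cytosolic ribosomal proteins 43 of 52 (-0.01 and -0.12) and for the cell cycle 25 of 29 (-0.02 and -0.33). Among all genes 52.4% had an interaction above 0, and genes of a list are not independent of each other. With median scaling the median interaction of all 6 lists was below 0. That of all genes was then -0.39, against 0.02 in the main fit.

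The array values show where the difference lay. The oxidative phosphorylation mean was 10.83 to 10.93 in tumor F4 against 10.73 and 10.87 in tumor F0. The microenvironment mean was 9.95, 10.21, 9.68 and 10.80 in F4 against 10.06 and 10.69 in F0. Tumor cells of both lines overlapped, and the microenvironment arrays high in these genes were F4 D and F0 B3, the same 2 arrays that were high in pigment genes (9.98 and 10.01 against 8.03 to 9.09 on the others). Without microenvironment F0 B3 the median interaction was -0.06 and 25 of 63 genes lay above 0. For the cell cycle list the difference was less tied to that array, with a median interaction of 0.23 and 21 of 29 genes above 0 without it. Cct8, a subunit of the chaperonin that folds actin and tubulin, had 10.12, 10.10, 10.01 and 10.18 in tumor F4 against 9.45 and 9.76 in tumor F0, and 8.97, 8.98, 9.33 and 9.70 in microenvironment F4 against 9.22 and 10.11 in microenvironment F0. Its interaction was 0.92 (0.02 to 1.83).

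Lipid synthesis genes mostly had shifts below 0 in both fractions. Of 23 measured, 19 were below 0 in both and 20 had the same sign, with medians of -0.27 in tumor cells and -0.18 in the microenvironment. Of all 7894 genes 2611 were below 0 in both, and 59.0% had the same sign. Srebf2, the transcription factor that drives cholesterol synthesis, had 8.23, 8.44, 8.33 and 8.52 in tumor F4 against 8.98 and 8.81 in tumor F0, and 8.73, 8.02, 7.81 and 8.24 in microenvironment F4 against 8.70 and 8.09 in microenvironment F0. It was separated in tumor cells and overlapped in the microenvironment. The microenvironment median of the list was 0.21 without F0 B3 and 0.02 with median scaling, and the tumor median -0.05 without tumor F4 A. Hypoxia genes had medians of -0.14 and -0.17, with 14 of 18 below 0 in both fractions. Vegfa, a growth factor for vessels, had 8.89, 9.20, 9.01 and 8.94 in tumor F4 against 9.14 and 9.45 in tumor F0, and 8.89, 8.97, 9.47 and 9.01 in microenvironment F4 against 9.59 and 9.81 in microenvironment F0, with an interaction of 0.33 (-0.39 to 1.04). The microenvironment median of this list was 0.18 without F0 B3.

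Pigment-cell genes had medians of -0.08 in tumor cells and -0.46 in the microenvironment, and 12 of 17 lay below 0 in both. So did 2611 of all 7894 genes, and 453 of the 819 genes brighter by at least 1 log2 unit in tumor cells. The mean of the list was 9.55 to 10.32 in tumor F4 against 10.06 and 10.20 in tumor F0, and 8.03 to 9.98 in microenvironment F4 against 8.73 and 10.01 in microenvironment F0. Groups overlapped, and the microenvironment median was 0.35 without F0 B3. Muscle genes, a tissue that a flank tumor can abut, had medians of 0.40 and 0.10. Their interaction was above 0 in 12 of 13, against 52.4% of all genes. Their mean was 7.55 on tumor F4 A against 5.24 to 5.38 on the other F4 and 5.22 and 5.32 on the F0 tumor arrays, and without F4 A the median interaction was -0.02. Des, the muscle filament desmin, was nevertheless separated in tumor cells, with 8.13, 6.81, 6.92 and 7.13 in F4 against 5.99 and 6.06 in F0. Eno3, the only gene of the list separated in both fractions, went the other way. It was lower in F4, with shifts of -0.58 in tumor cells and -0.87 in the microenvironment.

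**Figure D5:**
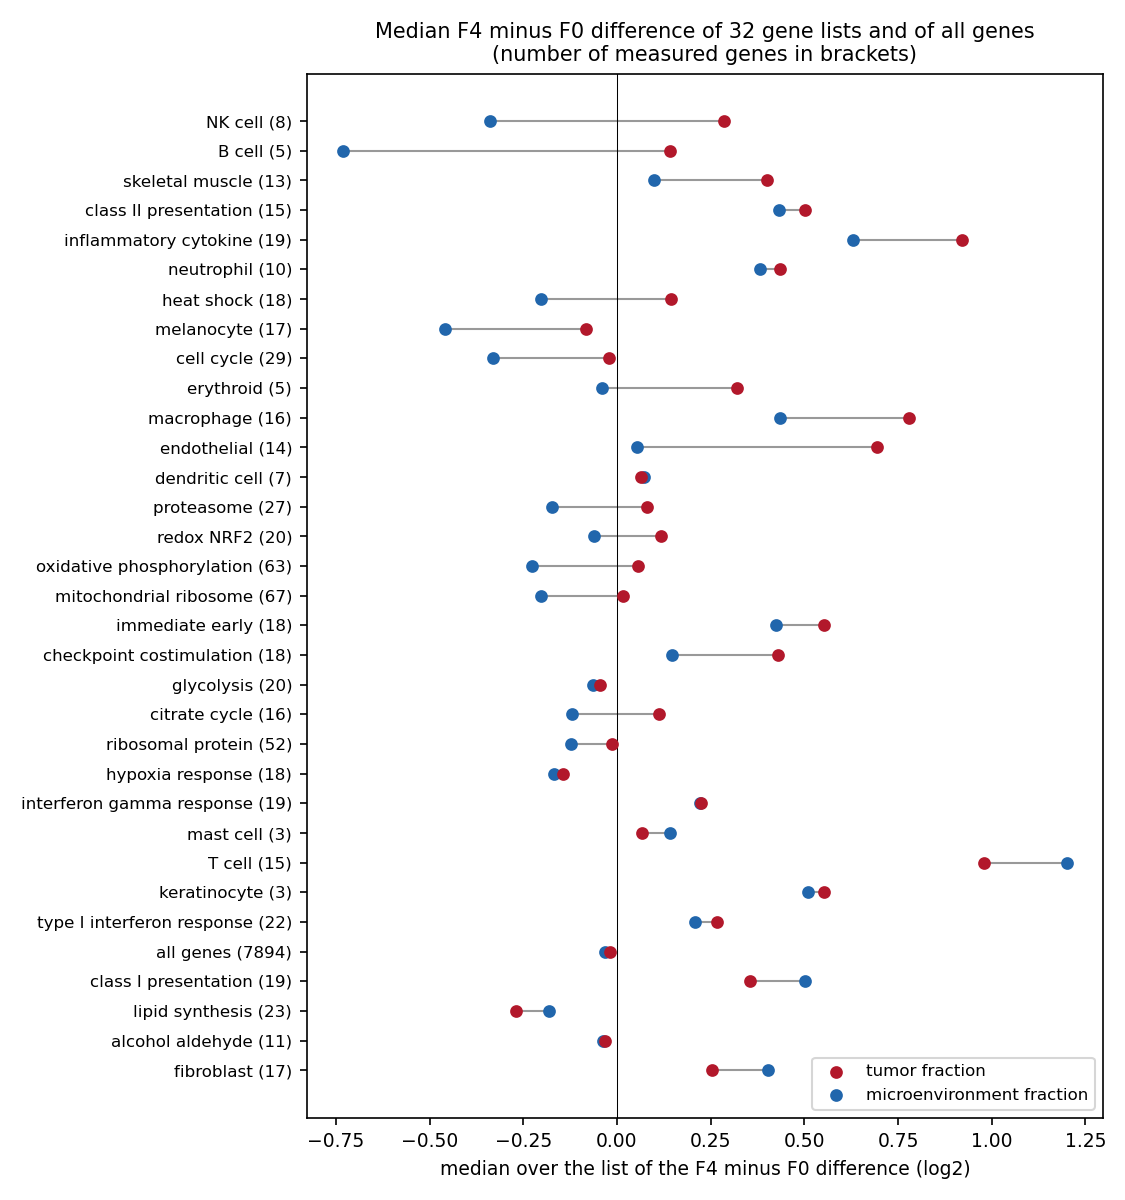
Median F4 minus F0 difference (log2, horizontal) of each of 32 gene lists and of all genes in the tumor fraction (red) and the microenvironment fraction (blue), ordered by the median interaction, with the number of measured genes in brackets. T cell, macrophage and inflammatory genes lie to the right in both fractions and lipid synthesis genes to the left, whereas heat shock and oxidative phosphorylation genes have medians of opposite sign. The median interaction of heat shock (-0.10) and oxidative phosphorylation (-0.19) falls below 0 with median scaling, where that of all genes is -0.39. Natural killer and B cell medians also differ in sign, but 7 of 8 and 5 of 5 of these genes were undetected in tumor F0. T cell, lipid synthesis and natural killer medians change sign in the microenvironment when 1 F0 array is left out (-0.51, 0.21 and 0.99), and the tumor median of inflammatory genes does so without tumor F0 B3 (-0.11).

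The scale of the comparison depends on the normalization. With median scaling the median of all genes moved to -0.26 in the tumor fraction and 0.14 in the microenvironment, against -0.02 and -0.03 with quantile normalization. The median interaction of all genes was -0.39 with median scaling and 0.02 with quantile normalization. Relative to the medians of each fraction 57.2% of genes had shifts of the same sign with median scaling and 58.8% with quantile normalization. The correlation across genes was 0.43 with median scaling, and 0 genes passed the interaction test.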

How the data were processed

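Gene expression was measured on 12 single-colour Illumina bead arrays. Per the labels' protocols, 300 ng of total RNA per sample, isolated with Qiagen kits, was amplified and biotinylated by the Eberwine method. Per the submitters' processing notes the arrays were read with GenomeStudio, with no version stated. For 25697 probes, one deposited table held a linear intensity that was not normalized, per the file headers. Beside it stood a detection p-value per probe and array, also deposited. A second deposited table of processed intensity values, its normalization not stated, entered as an alternative setting.

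Background was corrected by normexp from the detection p-values, with an offset of 16, followed by quantile normalization over the 12 arrays on the log2 scale (neqc of limma 3.58.1 in R 4.3.3). The filter kept 11224 probes whose detection p was under 0.01 on 2 or more arrays. Names came from the platform annotation, updated by Entrez identifier through RefSeq (12090 of 12096 named probes matched), and 13601 probes had no name here. The brightest probe stood for a gene, which gave 7894 genes. Group means were estimated with limma, using empirical Bayes moderation (residual degrees of freedom 8, prior 3.27) and Benjamini-Hochberg adjustment over all genes. All adjusted p of genes come from limma at a threshold of 0.05. The interaction was the F4 minus F0 difference in the tumor fraction minus that in the microenvironment. The average difference was fitted to the 6 pools of mice, each the mean of its tumor and microenvironment array. Intervals are 95% intervals of the same fits.

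The series text says that the tumors of a replicate were pooled before they were sorted, so equal replicate names pair the fractions. Deviations from the group means correlated between the arrays of a pool at 0.11 in F4 A, 0.11 in F4 B, -0.07 in F4 C, 0.56 in F4 D and 0.39 in both F0 pools. With only 2 arrays in an F0 group, the value of both F0 pools is equal by construction. The tumor arrays of F4 A, B and C correlated best with a microenvironment array of another pool. Because the arrays of a pool share mice, a fit with the pool as replicate block is given beside results whose call it changes. For the interaction, the tumor minus microenvironment differences of the pools were fitted instead.

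Each fraction had a chip of its own, so every F4 minus F0 difference was taken within a chip, and chip and fraction cannot be told apart. F0 samples held the first positions of both chips, and position cannot be told apart from line. A gene not detected on any array of a group has only a bound there: its fold, written "at least", compares the brighter group's mean with the higher, per array, of the lowest detected signal and the gene's own. The comparison, gene lists and naming rule were chosen with earlier results of these data known, so no count over a list is independent support. Named genes were among genes detected on every array of at least 1 group (shared genes: of the brighter line), the 8 each way with the smallest p of the average among genes separated alike in both fractions, the 8 each way with the smallest p of the interaction among genes whose pool differences separated, 4 of each opposite kind, up to 3 per list, and 13 carried over from earlier results, of which Ptprc had no kept probe. Unnamed clone genes were skipped. The steps were checked on simulated data. The alternatives were other normalizations, filters, probe rules, array weights, a marker covariate and leaving out arrays or pools.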

Additional observations from a re-analysis of the deposited data

Results flagged for a closer look

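Of 154 groups of 4 arrays examined, 12 held 1 array far from the other 3 by Dixon's criterion, which chance meets in about 1 in 20 groups. Tumor F4 A accounted for 8 of the 12. Its mean signal before normalization was 250.5, against 487.8 to 519.4 on the other tumor F4 arrays. Its mean of natural killer genes was 6.32 (others 4.40 to 4.66), of skeletal muscle genes 7.55 (5.24 to 5.38), of keratinocyte genes 6.78 (5.57 to 5.74) and of alcohol and aldehyde dehydrogenases 8.02 (8.18 to 8.20). On the same array Rhox5 was 7.23 (others 4.58 to 4.88), Fkbp11 7.07 (8.56 to 8.81) and Cdc37 5.39 (5.88 to 5.94). Tumor F4 D stood apart for Rad9b at 4.86 (others 4.59 to 4.61) and Wfdc6b at 4.53 (4.36 to 4.39), both undetected in tumor F4. Microenvironment F4 A stood apart for Slc12a2 at 8.67 (others 7.66 to 7.72), and microenvironment F4 D for Ly6d at 6.82 (6.59 to 6.62).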

How the results depend on the processing

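The interaction had 0 calls under every alternative that was run. The average shift, with 0 calls over pools, had 3 with the pool as replicate block, 7 from the 12 arrays, 1 with array weights, 1 with median scaling, 12 with the marker index as covariate and 5 without the 3 arrays that stand apart. For the average, the fits from the 12 arrays, with the marker index and without 3 arrays count both arrays of a pool as independent. With the block 5 genes instead of 6 were called lower in tumor cells, and the microenvironment count stayed at 0. The interaction count from the pool differences was 0 as well. Genes called higher and lower in tumor cells (1 and 6) numbered 51 and 49 with array weights, 16 and 21 with each fraction normalized alone, 5 and 11 with the marker index and 2 and 13 with a trended, robust prior. They numbered 0 and 2 without background correction, 0 and 3 with an offset of 50, and 0 and 0 among genes detected on all 12 arrays. The processed table gave 0 higher, the tumor arrays alone 0 lower, and leaving out 3 arrays 6 higher and 2 calls in the microenvironment. Genes separated alike (67) and oppositely (14) numbered 43 and 28 with median scaling, 18 and 6 when detected on all arrays, and 407 and 319 without 3 arrays, where fewer arrays make separation easier. The processed table gave 23 opposite. The correlation and share of equal signs were 0.24 and 51.5% with the marker index, 0.17 and 52.5% without 3 arrays and 0.29 and 56.2% for genes of like level, and the share was 41.9% with median scaling. Leaving out 1 array or pool gave 0 to 0 interaction calls, 0 to 3 genes higher and 0 to 8 lower in tumor cells, 0 to 1 in the microenvironment, 0 to 10 for the average, 74 to 1213 separated alike, 19 to 331 separated oppositely, correlations of 0.032 to 0.51 and shares of 48.2% to 65.8%. Signs turned for the interaction of Spcs3 (-0.081, median scaling) and Adh7 (0.18, fractions normalized alone). Mlana had a tumor shift of 0.077 with array weights, 0.24 with the marker index and 0.13 without 3 arrays, and its interaction was -0.065 with median scaling. With arrays or pools left out, its tumor shift ran from -0.28 to 0.13, its microenvironment shift from -1.22 to 0.42 and its interaction from -0.54 to 1.1, and values of 0.043, 0.0076, -0.13, -0.18 and -0.38 were among those that turned. The microenvironment shift of Slc2a3 was -0.065 without 3 arrays, and -0.089 to 0.87 with 1 array or pool left out. The cause of these changes was not tested. Only 2 F0 pools limit every comparison.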
